A study of Mus musculus with 50 samples.

Results

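The 10 hypoxia response genes described here are Hif1a, Epas1, Egln1, Egln3, Bnip3, Car9, Ndrg1, Adm, Ankrd37 and Stc1. They were chosen by name as a pathway and not by a rule on their measured values, though earlier results of these data were known. All 10 were among the 21954 genes in the tables. RNA was sequenced from the wound bed of the amputated hindlimb digit tip (terminal phalanx of digit 3) of male C57Bl/6 mice aged 9 to 10 weeks, and from macrophages grown for 7 days from the bone marrow of female C57BL/6 mice aged 6 to 8 weeks. The digits fell into a non-regenerative group (labelled NR, 60 to 80% of the phalanx removed, 29 digits) and an intermediate group (labelled INT, 41 to 55% removed, 12 digits). Non-regenerative digits were taken at 0, 3, 6, 12 and 24 h and at 3, 7, 14 and 21 d, with 3 digits at each time and 5 at 7 d. Intermediate digits were taken at 0 h, 24 h, 14 d and 21 d, with 3 digits at each time. The study places the non-regenerative level above 67%, and 12 of the 29 digits labelled non-regenerative were at 67% or below. The macrophages were M0 (labelled baseline, given basal medium), M1 (IFN-γ with LPS) and M2 (IL-4), each collected after 24 h by the study's methods, with 3 libraries each. The labels name no genetic change in either. Each digit library holds a mixture of cells around the wound, and in such bulk samples fewer cells of a type and less RNA per cell cannot be told apart.

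Cells sense a fall in oxygen through the hypoxia-inducible factors. Their α subunits, HIF-1α (Hif1a) and HIF-2α (Epas1), are hydroxylated by oxygen-dependent prolyl hydroxylases, among them PHD2 (Egln1) and PHD3 (Egln3), and are then marked for breakdown by the von Hippel-Lindau protein. When oxygen is short the α subunits persist, pair with ARNT and bind short DNA elements at target genes. Control acts largely on the protein, so the messenger RNA of an α subunit is not a measure of HIF activity. Egln1 and Egln3 are themselves HIF targets, as are Bnip3 (a mitochondrial protein of mitophagy and cell death), Ndrg1 (a cytoplasmic stress protein), Ankrd37 (a small ankyrin-repeat protein), Car9 (carbonic anhydrase IX, an enzyme of pH control at the cell surface), Adm (adrenomedullin, a secreted vasodilator peptide) and Stc1 (stanniocalcin-1, a secreted glycoprotein). In macrophages, Hif1a transcription is also known to respond to LPS. Wound beds lose perfusion when vessels are cut, and healing digit tips have been studied for their oxygen level.

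Total expected counts ran from 1468749 to 13011782 over the digits and from 15683424 to 27904773 over the macrophages. Digit 3 at 3 h was the shallowest library, and the non-regenerative digit 2 at 14 d and digit 2 at 7 d lay farthest from the other digits of their groups (mean distance, 1 minus Spearman's rho over genes, 0.341 and 0.301). The summed normalized TPM of 6 neutrophil markers was 20.4 to 25.2 in non-regenerative digits at 0 h, 185 to 252 at 6 h, 408 to 1138 at 12 h, 1134 to 1299 at 24 h and 644 to 1110 at 3 d. That of 5 erythroid markers was 1492 to 1667 at 0 h, 111 to 358 at 3 h, 46.7 to 245 at 6 h, 178 to 567 at 12 h, 36.7 to 188 at 24 h and 13.1 to 60.3 at 3 d. At 0 h and at 24 h the sums overlapped for 7 endothelial markers (62.6 to 132 and 73.0 to 102), 7 macrophage markers (67.2 to 115 and 55.3 to 121), 7 keratinocyte markers (37095 to 76053 and 33841 to 56659), 6 osteoblast markers (51.5 to 148 and 20.9 to 87.3) and 6 skeletal muscle markers (11.3 to 49.0 and 6.49 to 15.9). Those of 6 fibroblast markers were 1612 to 2956 and 604 to 1541. The macrophage libraries had 8151 to 9962 for the macrophage markers and 0.53 to 1.79 for the keratinocyte markers, of which 3 to 6 of 7 were at 0 in each library. Other sums differed between the states without overlap. Those of the fibroblast markers were 573 to 857 in M0, 376 to 437 in M1 and 1091 to 1225 in M2, those of the neutrophil markers 369 to 383, 158 to 192 and 415 to 469, and those of the osteoblast markers 9.99 to 18.7, 1.39 to 1.74 and 20.6 to 23.7. Their part in the macrophage results was not tested. Digit labels carry a date whose meaning is not given, in an earlier (24 digits) and a later (17 digits) period, and animal marks that recur between digits. Which digits came from 1 animal, or which macrophages from 1 culture, is not given, so each p-value measures only the spread between these libraries.

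Promoters are shown for the 3 members with the largest rise in M1 against M0 and for Adm, the member called at the most digit times, so that the element read by HIF can be seen beside the values that follow. RefSeq sequence on GRCm38.p6 was found for 7 of 10 members (not Epas1, Ndrg1 or Stc1). The core letters ACGTG and GCGTG were searched on both strands in 250 bases before and 50 after each start site. At least 1 core was held by 43.8% of 32851 mouse promoters (ACGTG by 19.6%, GCGTG by 32.4%), so its presence alone sets no gene apart. The printed lines are the 250 bases before the start site, 5′ to 3′ on the gene's strand, with cores in capitals. CACGC is GCGTG on the other strand, and CACGTG holds ACGTG on both strands and counts as 2 matches. Bnip3 (chr7:138909507-138909756, minus strand) had 5 matches, a number reached by 1.66% of promoters. Ankrd37 (chr8:45999851-46000100, minus strand) had 4, reached by 3.86%. Adm (chr7:110627407-110627656, plus strand) had 2 and Egln3 (chr12:54203875-54204124, minus strand) had 1.
Bnip3: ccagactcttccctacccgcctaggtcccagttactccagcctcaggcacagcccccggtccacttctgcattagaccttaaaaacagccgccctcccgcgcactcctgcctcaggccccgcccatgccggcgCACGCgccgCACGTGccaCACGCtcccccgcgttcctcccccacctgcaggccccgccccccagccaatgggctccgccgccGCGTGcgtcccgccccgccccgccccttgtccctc
Ankrd37: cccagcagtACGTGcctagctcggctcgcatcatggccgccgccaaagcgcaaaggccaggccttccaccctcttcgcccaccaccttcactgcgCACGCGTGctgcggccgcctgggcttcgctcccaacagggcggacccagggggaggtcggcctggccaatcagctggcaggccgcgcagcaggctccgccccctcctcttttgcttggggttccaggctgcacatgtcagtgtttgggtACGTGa
Adm: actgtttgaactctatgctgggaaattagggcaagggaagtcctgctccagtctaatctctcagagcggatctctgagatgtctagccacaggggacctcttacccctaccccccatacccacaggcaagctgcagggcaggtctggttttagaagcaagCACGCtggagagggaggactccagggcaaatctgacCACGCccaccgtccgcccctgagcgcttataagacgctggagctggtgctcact
Egln3: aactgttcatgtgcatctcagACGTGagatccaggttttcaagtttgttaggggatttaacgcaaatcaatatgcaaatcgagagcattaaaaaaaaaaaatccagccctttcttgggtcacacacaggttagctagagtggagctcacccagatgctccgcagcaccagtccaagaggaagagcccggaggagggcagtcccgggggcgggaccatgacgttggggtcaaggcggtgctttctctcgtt
In Bnip3 4 of the 5 matches lay 95 to 117 bases before the start site, and the fifth began 35 bases before it. Ankrd37 held 1 core that began 6 bases before the start site. Adm held GCGTG and no ACGTG. Hif1a had 3 matches, Egln1 had 2 and Car9 had 1. A match describes letters and is not a measured binding site.

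After amputation, members passed the test at 6, 12 and 24 h in the non-regenerative digits, the times with the most calls among all genes. Adm rose at 6, 12 and 24 h, Ndrg1 rose at 6 h, and Epas1 fell at 12 and 24 h, each against 0 h. A gene was called at an adjusted p under 0.05 (edgeR's quasi-likelihood test, Benjamini-Hochberg over all genes tested) if its mean normalized count, with 1 added, also differed by over 2-fold. At 6 h 2 of 10 members were called, both higher, beside 4.85% of all genes tested (3.23% higher, 1.62% lower). At 12 h 1 was higher and 1 lower, beside 11.4% (6.76% and 4.64%), and at 24 h again 1 and 1, beside 10.7% (5.57% and 5.14%). At 3 h 0 of 9 members and 0% of all genes were called, although 1362 genes had an unadjusted p under 0.05 and DESeq2 called 196. No member was called at 3 d (0.723% of all genes), 7 d (0.0537%), 14 d (0%) or 21 d (0.452%). The median log2 fold change of the members was 0.23 at 6 h, 0.23 at 12 h, 0.52 at 24 h and 0.30 at 3 d, beside medians of all genes between -0.04 and 0.00.

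**Figure D1:**
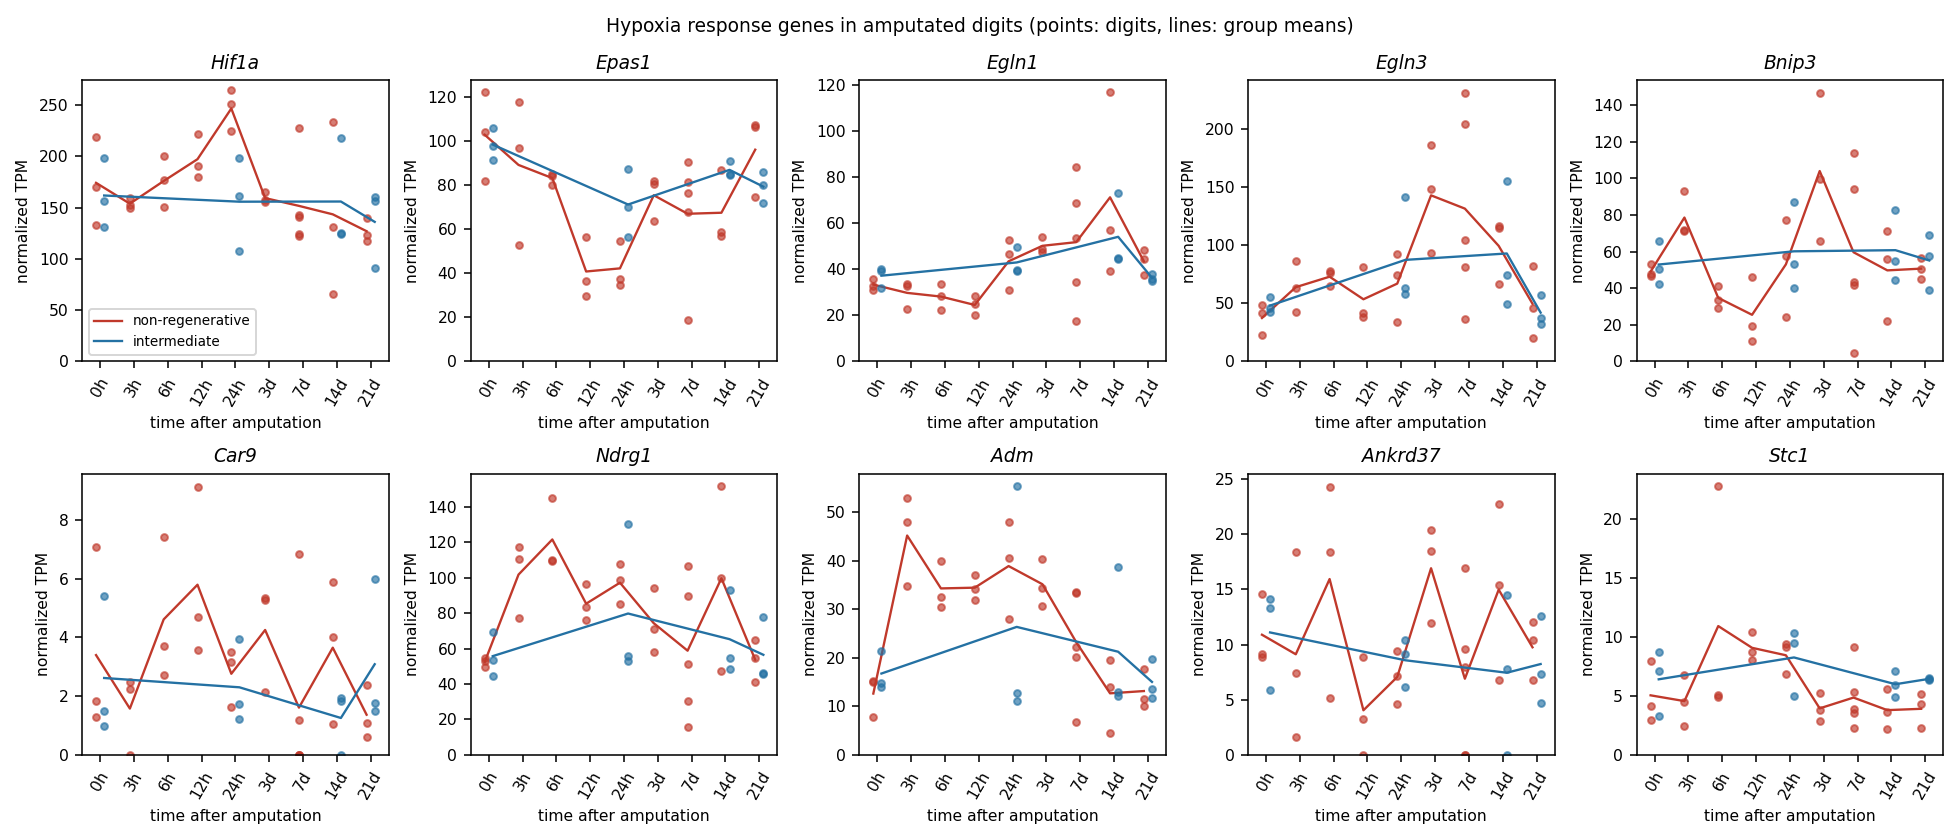
Normalized TPM (linear axis from 0, a panel per gene) of the 10 members by time after amputation, 1 point a digit, red for non-regenerative and blue for intermediate digits, with lines through group means. Adm lay between 7.74 and 15.2 in the 3 non-regenerative digits at 0 h and between 28.1 and 52.9 in all 15 from 3 h to 3 d.

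Adm, the vasodilator peptide, was the member called at the most digit times. Its level at 0 h was 15.2, 7.74 and 15.0 normalized TPM in the 3 non-regenerative digits. It was 34.8, 52.9 and 48.0 at 3 h, 39.9, 32.5 and 30.6 at 6 h, and 34.3, 32.0 and 37.1 at 12 h. It was 40.6, 28.1 and 48.1 at 24 h and 34.4, 40.4 and 30.7 at 3 d. No digit from 3 h to 3 d overlapped the 0 h digits. At 7 d the levels were 20.3, 22.2, 33.5, 6.81 and 33.5, and at 14 d (14.02, 4.44 and 19.6) and 21 d (11.6, 17.8 and 10.1) they overlapped those at 0 h. The log2 fold change from 0 h was 1.44 ± 0.30 (SE) at 6 h (edgeR adjusted p = 0.0328), 1.52 ± 0.29 at 12 h (edgeR adjusted p = 0.0114) and 1.63 ± 0.31 at 24 h (edgeR adjusted p = 0.0114). At 3 h it was 1.92 ± 0.37 (edgeR adjusted p = 0.217) and at 3 d 1.496 ± 0.32 (edgeR adjusted p = 0.0891), neither called. Adm was also the 1 member of 10 called in the test over all 9 times (edgeR adjusted p = 0.0342, beside 7.62% of all genes). With the date period as a term this call was lost (edgeR adjusted p = 0.0957).

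The call of Adm at 12 h was kept whichever digit was left out (log2 fold change 1.24 to 1.66). At 24 h it was lost without digit 1 of 24 h (1.55, edgeR adjusted p = 0.0515). At 6 h it was lost on leaving out any 1 of 5 of the 6 digits, and kept without digit 1 of 0 h, with values from 1.19 to 1.60 and, where lost, edgeR adjusted p of 0.0632 to 0.0957. In 1 fit of all 41 digits, which share 1 spread, 0 members were called at 6 h and at 24 h and 1 at 12 h (Epas1). Within date periods the log2 ratio of mean normalized TPM was 1.25 (earlier) and 1.43 (later) at 6 h, 1.54 and 1.31 at 24 h, and 1.10 and 1.83 at 3 d, each from 1 or 2 digits a group. At 12 h all digits were of the earlier period, and the ratio to the single earlier digit at 0 h was 1.18. From 3 h to 3 d, when Adm stood apart, erythroid marker sums were lower than at 0 h at every time, and from 6 h neutrophil sums were higher, all without overlap. At 3 h the neutrophil sums were 16.0 to 104, which overlaps 0 h. The part of these in the Adm levels was not tested.

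Stc1, the other secreted member, was lower per length than Adm and less regular. It was at 7.98, 2.995 and 4.17 normalized TPM at 0 h and at 8.08, 8.74 and 10.4 at 12 h. All 12 h digits lay above those of 0 h, but the log2 difference of 0.93 ± 0.35 was not called (edgeR adjusted p = 0.101). The highest Stc1 level was 22.8, in digit 1 at 6 h, while the other two were at 5.08 and 4.87. Without digit 1 of 0 h, Stc1 was called at 12 h (log2 fold change 1.37, edgeR adjusted p = 0.00988) and at 24 h (1.27, edgeR adjusted p = 0.0178).

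Of the HIF α subunits, Epas1 fell in the first day and Hif1a was not called at any time. Epas1 was at 82.1, 104 and 122 normalized TPM at 0 h. It was at 29.8, 56.3 and 36.3 at 12 h and at 37.2, 54.8 and 34.7 at 24 h. These 6 digits all lay below every 0 h digit. Epas1 fell by 1.28 ± 0.27 on the log2 scale at 12 h (edgeR adjusted p = 0.0162) and by 1.24 ± 0.24 at 24 h (edgeR adjusted p = 0.0119). At 3 d it was at 63.7, 80.6 and 81.9, and at 21 d at 107, 106 and 74.6, where 2 of 3 digits were within the range of 0 h. Fibroblast and erythroid marker sums were lower at 24 h than at 0 h without overlap, neutrophil sums higher, and endothelial sums overlapped, as given above. Their part in the Epas1 levels was not tested.

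The Epas1 calls were not stable to single digits. At 12 h the call was lost without digit 2 of 0 h (-1.28, edgeR adjusted p = 0.0526), digit 3 of 0 h (-1.16, 0.0585), digit 1 of 12 h (-1.13, 0.0555) or digit 3 of 12 h (-1.20, 0.0746). At 24 h it was lost without digit 3 of 0 h (-1.09, edgeR adjusted p = 0.0501) or digit 1 of 24 h (-1.16, 0.0686). The direction was kept in each, and within date periods the log2 ratio of means at 24 h was -1.19 (earlier) and -1.05 (later).

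Hif1a was the most abundant member per length in the digits, with a lowest, median and highest level over 41 digits of 66.2, 156 and 264 normalized TPM. It was at 219, 133 and 170 at 0 h and at 264, 251 and 225 at 24 h, so that every 24 h digit was above every 0 h digit. The log2 difference was 0.60 ± 0.20 and was not called (edgeR adjusted p = 0.0764). At 24 h all 3 digits also lay above those of 12 h (180, 222 and 191) and of 3 d (156, 157 and 165). From 24 h to 3 d no member was called (2.76% of all genes), and Hif1a differed by -0.66 ± 0.17 on the log2 scale (edgeR adjusted p = 0.0774). Both extremes of Hif1a at 14 d came from single digits, 66.2 in digit 2 and 233 in digit 3.

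Of the 2 hydroxylases, Egln3 had the larger change in mean. It was at 22.4, 48.2 and 41.7 normalized TPM at 0 h and at 149, 93.8 and 187 at 3 d, a log2 difference of 1.92 ± 0.36 that was not called (edgeR adjusted p = 0.0585). The digits did not overlap, and without digit 2 of 3 d Egln3 was called (2.13, edgeR adjusted p = 0.0318). At 7 d it spread from 36.6 to 232 over 5 digits and at 14 d it was at 66.6, 115 and 117, above every 0 h digit. Within date periods the log2 ratio of means at 3 d was 2.90 (earlier) and 1.06 (later). Egln1 was at 31.2, 35.9 and 32.9 at 0 h and at 49.0, 54.1 and 47.6 at 3 d, without overlap, a log2 difference of 0.60 ± 0.18 (edgeR adjusted p = 0.215). Its highest level, 117, was in digit 2 at 14 d, which also gave the 115 of Egln3. The normalized TPM of that digit summed over all genes to 3362791, against 911219 to 1005030 at 0 h, which bears on both levels.

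Ndrg1, the cytoplasmic stress protein, was called at 6 h only. It was at 53.0, 54.7 and 49.7 normalized TPM at 0 h, at 77.3, 111 and 118 at 3 h and at 145, 110 and 110 at 6 h. It was at 83.4, 96.8 and 76.1 at 12 h and at 108, 98.8 and 85.3 at 24 h. All 12 digits from 3 to 24 h lay above the 3 of 0 h, as did those of 3 d (70.9, 58.1 and 94.2). Ndrg1 rose by 1.30 ± 0.18 on the log2 scale at 6 h (edgeR adjusted p = 0.00888), and this call was lost without digit 3 of 0 h (1.24, edgeR adjusted p = 0.0673). At 12 h (0.63 ± 0.18, edgeR adjusted p = 0.0465) and 24 h (0.84 ± 0.20, edgeR adjusted p = 0.026) it passed the threshold of p but not that of 2-fold. Without digit 3 of 24 h it passed both at 24 h (1.02, edgeR adjusted p = 0.0157).

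Bnip3, of mitophagy, was not called at any time, although its digits stood apart from 0 h at 4 times. It was at 53.1, 46.5 and 47.7 normalized TPM at 0 h, at 92.9, 71.3 and 71.6 at 3 h and at 29.2, 41.2 and 33.8 at 6 h. It was at 11.1, 45.9 and 19.4 at 12 h and at 99.5, 66.0 and 147 at 3 d. The 3 h and 3 d digits lay above, and the 6 h and 12 h digits below, those of 0 h, with no overlap. At 12 h the log2 difference was -0.72 ± 0.43 (edgeR adjusted p = 0.264), and without digit 2 of 12 h Bnip3 was called (-1.44, edgeR adjusted p = 0.0232). At 3 d it was 1.35 ± 0.34 (edgeR adjusted p = 0.152), and without digit 2 of 3 d it was called (1.64, edgeR adjusted p = 0.025).

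Ankrd37 and Car9 were the members with zeros among the digits. Ankrd37 ranged from 0 to 24.3 normalized TPM with a median of 9.14, and Car9 from 0 to 9.12 with a median of 2.15. Each had 3 or fewer expected counts in 5 of the 41 digits, and Car9 never had more than 37. Neither was called at any time. Car9 did not reach the low-count filter in 6 comparisons, which leaves 9 members there. Ankrd37 lies at chr8:45996902-46005707 on the minus strand (GRCm38) and overlaps Ufsp2 and Lrp2bp on the other strand. The strand setting of the counting is not given, and overlap of exons was not looked at. The part of reads from these genes in the Ankrd37 levels was not tested.

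**Figure D2:**
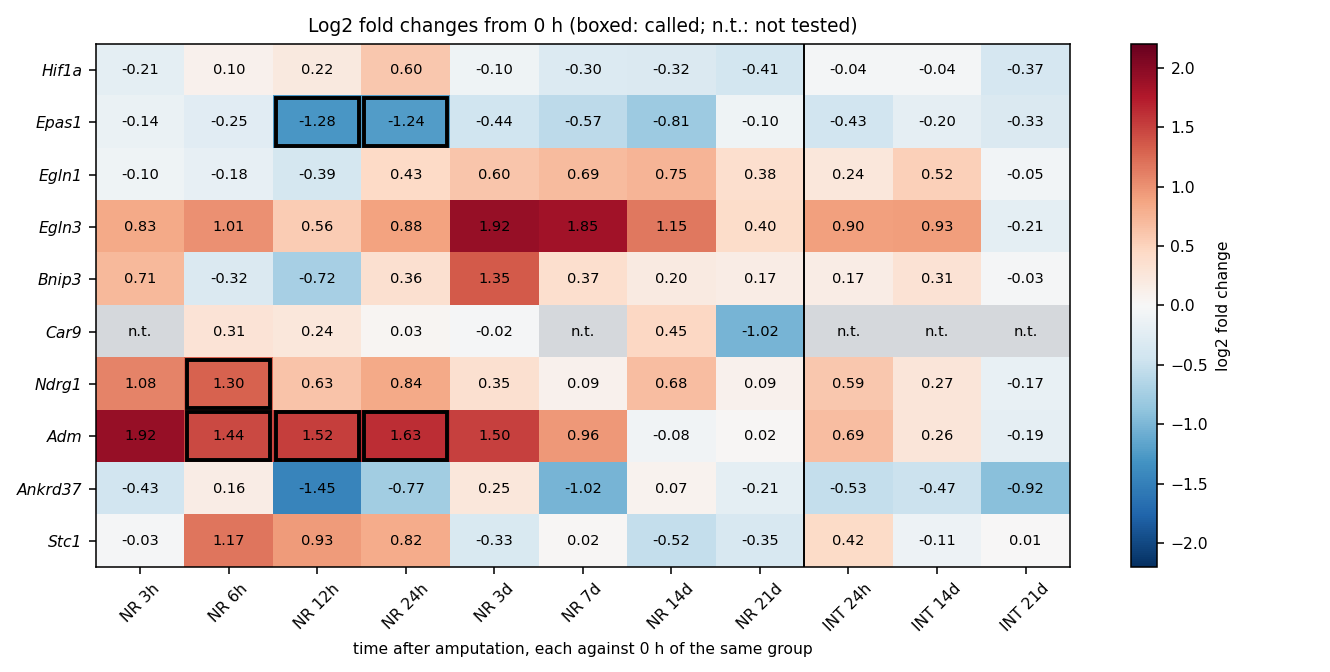
Grid of log2 fold changes from 0 h of the same group (edgeR) for the 10 members (lines) at each time in non-regenerative (NR) and intermediate (INT) digits (columns), red for higher and blue for lower, boxed where called and grey where not tested. Adm is boxed at 6, 12 and 24 h (1.44, 1.52 and 1.63), Ndrg1 at 6 h (1.30) and Epas1 at 12 and 24 h (-1.28 and -1.24), and no INT cell is boxed.

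When each gene's 9 non-regenerative times were put in order of mean level, neighbours did not overlap in 3 of 80 pairs, beside 2.17% of such pairs over all genes tested. These were Hif1a at 24 h above 12 h, Egln1 at 21 d above 0 h and Bnip3 at 0 h above 6 h. In the intermediate digits this held for 2 of 30 pairs (7.87% over all genes), Epas1 at 0 h above 14 d and Egln3 at 24 h above 0 h. The members whose digits lay all above or all below those of 0 h are set beside the same shares of all genes. At 3 h 3 lay above (8.51%), at 6 h 3 above and 1 below (13.6% and 14.9%), and at 12 h 3 above and 4 below (18.4% and 19.1%). At 24 h 3 lay above and 1 below (16.1% and 18.5%) and at 3 d 5 above and 1 below (8.57% and 7.73%). At 7 d there were none (2.85% and 3.3%), at 14 d 2 above and 0 below (10.3% and 6.46%), and at 21 d 1 above and 0 below (6.23% and 6.05%).

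Across the 9 times, the test that called Adm alone depended on the 2 digits that stood apart. Adm was lost on leaving out any 1 of 17 of the 29 digits. Without digit 2 of 7 d, 5 members were called (Epas1, Egln1, Egln3, Ndrg1 and Adm). Without digit 2 of 14 d Hif1a joined Adm (edgeR adjusted p = 0.0251), and without digit 2 of 21 d Egln3 did (0.0495). Without both digit 2 of 7 d and digit 2 of 14 d, an alternative chosen after seeing the data, 7 members were called, with edgeR adjusted p of 0.00388 for Adm, 0.00421 for Epas1, 0.00444 for Egln1, 0.00721 for Hif1a, 0.00832 for Egln3, 0.0167 for Ndrg1 and 0.0337 for Bnip3. In that fit 3003 of 14722 genes were called. Digit 2 of 7 d held the lowest Bnip3 (4.78), Ndrg1 (15.6), Epas1 (19.0) and Egln1 (17.7) level of all 41 digits, and digit 2 of 14 d the lowest Hif1a (66.2) and Adm (4.44) and the highest Egln1 (117) and Ndrg1 (152). The macrophage marker sum of digit 2 of 14 d was 1591, above the 38.0 to 333 of the other digits. Its keratinocyte sum was 133747, against at most 76701 in the others, and its normalized TPM summed over all genes to 3362791, against 795701 to 1434851, which bears on every level printed for it. The sum of 1434851 was that of digit 2 of 7 d, which had counts above 0 for 10096 genes, against 11675 to 16848 in the other digits. The part of these in the levels of either digit was not tested.

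In the intermediate digits no member was called against 0 h at 24 h (0.0152% of all genes), 14 d (1.68%) or 21 d (1.39%). Adm was at 13.98, 21.5 and 14.8 normalized TPM at 0 h and at 55.4, 12.7 and 11.02 at 24 h. Only digit 1 of 24 h exceeded the 0 h digits. Egln3 in the same order was at 55.6, 46.1 and 42.9, then at 141, 58.2 and 62.9, without overlap, as for 9.51% of all genes (log2 difference 0.90 ± 0.34, edgeR adjusted p = 0.276). Ndrg1 was at 131, 55.9 and 53.3 at 24 h, against 69.6, 53.5 and 44.3 at 0 h. Digit 1 of 24 h was the highest of its 3 for Hif1a, Egln1, Egln3, Bnip3, Ndrg1, Adm and Ankrd37. It was also the only one of the earlier date period, and its neutrophil marker sum was 1350, against 141 and 414 in the others, and the part of either in these levels was not tested.

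Epas1 lay all below 0 h at 24 h (56.6, 87.1 and 69.9 against 106, 91.2 and 97.8, as for 11.6% of all genes), at 14 d (8.23%) and at 21 d (9.47%), and Egln1 all above at 14 d (9.6%). Within date periods the log2 ratio of mean Adm at 24 h to 0 h in intermediate digits was 1.61 in the earlier and -0.24 in the later period. That of Ndrg1 was 1.42 and -0.35 and that of Egln3 was 1.67 and 0.12. At 14 d digit 1 also stood apart, with 38.8 for Adm, 155 for Egln3 and 218 for Hif1a, against 12.9 and 12.1, 74.3 and 49.6, and 124 and 126 in the others. Its neutrophil marker sum was 2169, that of the other two 22.0 and 47.7. The non-regenerative digit 3 at 14 d, which carries the same animal mark, side and date in its label, had a sum of 2461.

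Set against each other at the same time, the 2 groups differed in no member at 0 h, 24 h or 14 d (0%, 0% and 0% of all genes called) or at 21 d (0.648%). At 24 h Epas1 was at 56.6, 87.1 and 69.9 normalized TPM in intermediate digits, all above the non-regenerative digits, and Hif1a at 199, 108 and 161, all below them. The log2 differences were 0.74 ± 0.24 and -0.72 ± 0.23 (both edgeR adjusted p = 0.376). Among all genes 8.66% had intermediate digits all above and 7.06% all below at 24 h. Adm at 24 h differed by -0.51 ± 0.58 (edgeR adjusted p = 0.737), and without intermediate digit 1 it was called (-1.68, edgeR adjusted p = 0.0126). Within date periods the log2 ratio of Adm means was 0.32 (earlier) and -1.24 (later). At 21 d every intermediate digit belonged to the earlier period and every non-regenerative one to the later, so period and group cannot be told apart there.

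No member was called in the test of whether the change from 0 h differed between the groups over the 4 shared times (0% of all genes). The lowest p was that of Epas1 (unadjusted 0.05, edgeR adjusted p = 0.66). The Epas1 fall at 24 h, called in non-regenerative digits and not in intermediate ones (log2 difference -0.43, edgeR adjusted p = 0.352), was therefore not shown to differ between them.

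In macrophages more members were called than at any digit time, as were more of all genes. In M1 against M0, 8 of 10 members rose and Epas1 fell, leaving Car9, beside 46.1% of all genes called (20.1% higher and 26% lower). The median log2 fold change of the members was 2.15, that of all genes -0.09. The members called in M1 against M2 were also 8 higher and 1 lower, beside 48% (20.1% and 27.9%). M1 is a term of both comparisons, so their values are given side by side and are not independent. The libraries of 8 members lay all higher in M1 than in M0, as for 41.1% of all genes, and those of 1 all lower, as for 43.9%. In M2 against M0 41.2% of all genes lay all higher and 34.6% all lower, and in M1 against M2 42.8% and 44.1%. A lack of overlap between states therefore sets no member apart. In M2 against M0 Adm rose and Ndrg1 and Stc1 fell, beside 22.3% of all genes (11% higher and 11.3% lower), with a member median of 0.12 and a median of all genes of 0.00. Normalized TPM summed over all genes to 786283 to 820932 in M0, 1331226 to 1355441 in M1 and 892687 to 926275 in M2. The part of these unequal sums in the differences between states was not tested, which matters most for those near 2-fold.

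**Figure D3:**
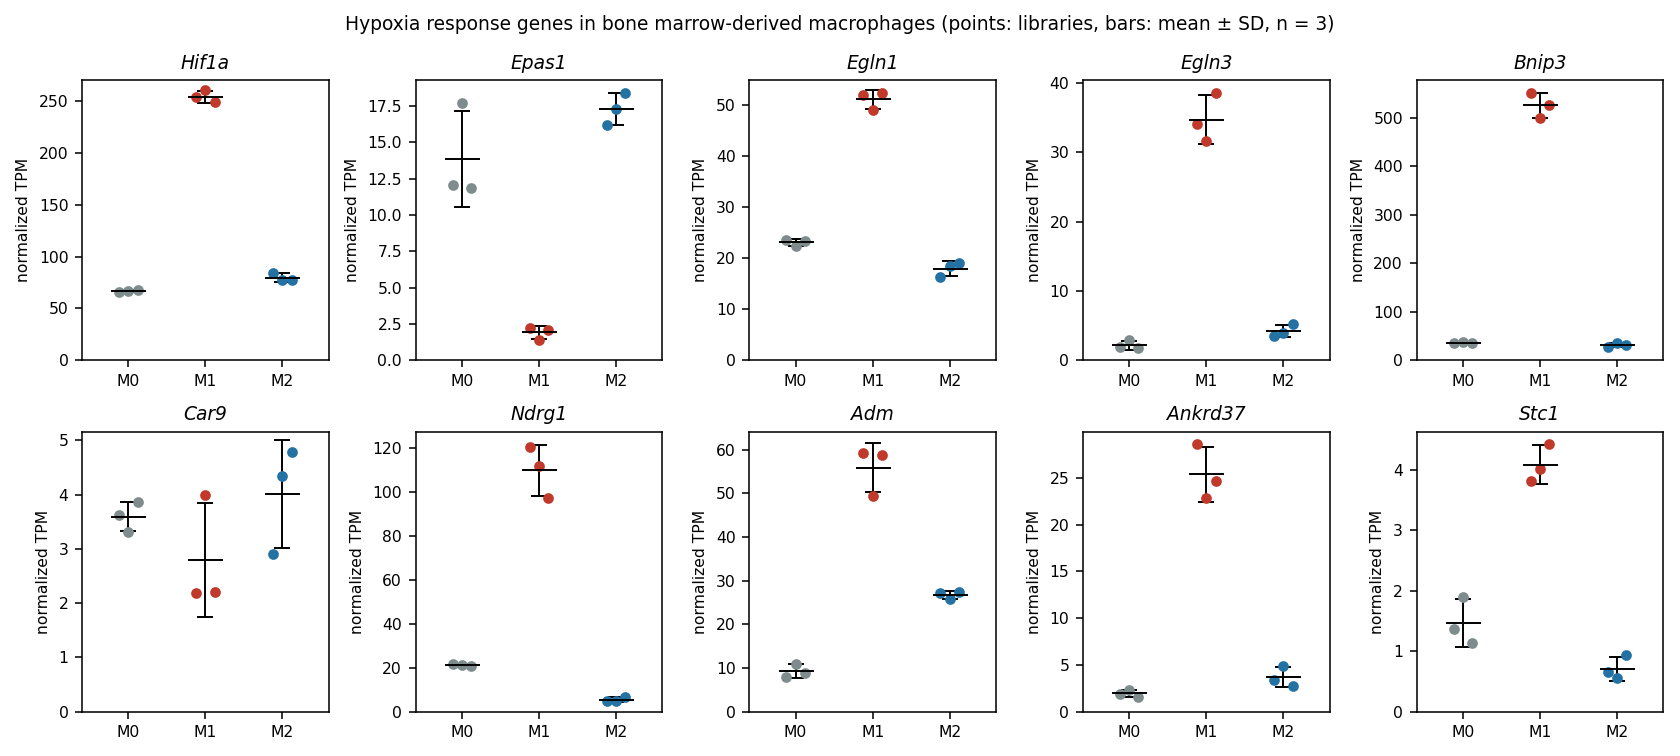
Normalized TPM (linear axis from 0, a panel per gene) of the 10 members in the 9 macrophage libraries, 1 point a library, with bars for the mean ± SD (n = 3). Bnip3 lay at 499 to 551 in M1 and 27.0 to 36.7 in M0 and M2, and Epas1 at 1.42 to 2.21 in M1 and 11.8 to 18.4 in M0 and M2.

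The α subunits went opposite ways between M1 and M0. Hif1a was at 66.3, 66.4 and 68.1 normalized TPM in M0, at 254, 260 and 249 in M1 and at 84.4, 77.8 and 77.2 in M2. The 3 states did not overlap. Hif1a rose in M1 by 1.92 ± 0.04 on the log2 scale against M0 (edgeR adjusted p = 1.06e-12) and by 1.63 ± 0.05 against M2. Its difference between M2 and M0, 0.19 ± 0.05, passed the threshold of p (edgeR adjusted p = 0.00424) and not that of 2-fold. Epas1 was at 12.1, 17.7 and 11.9 in M0, at 2.21, 1.42 and 2.09 in M1 and at 16.2, 17.3 and 18.4 in M2. It fell by 2.80 ± 0.19 against M0 (edgeR adjusted p = 3.3e-08) and by 3.15 ± 0.10 against M2 (edgeR adjusted p = 1.26e-12).

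Both hydroxylases rose in M1. Egln1 was at 23.5, 22.3 and 23.3 normalized TPM in M0, at 52.0, 48.8 and 52.3 in M1 and at 16.3, 18.5 and 19.0 in M2. Its log2 fold change was 1.16 ± 0.05 against M0 (edgeR adjusted p = 1.42e-10) and 1.49 ± 0.06 against M2. Egln3 was at 1.86, 2.85 and 1.69 in M0, at 34.1, 31.6 and 38.6 in M1 and at 3.501, 3.99 and 5.20 in M2. It rose by 4.05 ± 0.15 against M0 (edgeR adjusted p = 6.23e-11) and by 3.03 ± 0.11 against M2 (edgeR adjusted p = 5.84e-12). Egln3 in M2 against M0 missed the 2-fold threshold (0.93 ± 0.21, edgeR adjusted p = 0.00198), and was called without M2 library 1 (1.04) or M0 library 2 (1.18).

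Bnip3 had the largest M1 level of the 10 members per length. It was at 36.2, 36.7 and 34.6 normalized TPM in M0, at 551, 499 and 528 in M1 and at 27.0, 35.1 and 30.8 in M2. The rise was 3.90 ± 0.05 on the log2 scale against M0 (edgeR adjusted p = 2.32e-14) and 4.10 ± 0.07 against M2 (edgeR adjusted p = 6.83e-15). Ankrd37 was at 1.90, 2.34 and 1.59 in M0, at 28.6, 22.9 and 24.7 in M1 and at 3.33, 4.86 and 2.79 in M2. It rose by 3.77 ± 0.17 against M0 (edgeR adjusted p = 5.24e-10) and by 2.77 ± 0.17 against M2. These were the 2 printed promoters with 5 and 4 core matches, while Egln3, with 1 match, rose by a like amount. In M2 against M0 Ankrd37 was called without M2 library 3 (1.084) or M0 library 2 (1.04) and not with all libraries (0.91 ± 0.28, edgeR adjusted p = 0.0129).

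Ndrg1 was ordered M1, M0, M2, with no overlap between neighbours. It was at 21.7, 21.1 and 20.8 normalized TPM in M0, at 120, 112 and 97.2 in M1 and at 4.92, 4.84 and 6.66 in M2. It rose in M1 by 2.38 ± 0.07 on the log2 scale (edgeR adjusted p = 9.76e-12) and fell in M2 by 2.07 ± 0.09 (edgeR adjusted p = 7.05e-09), each against M0. Between M1 and M2 the log2 difference was 4.35 ± 0.10 (edgeR adjusted p = 3.12e-14), the largest of the members in that comparison. Stc1 had the same order at far lower levels, with 1.36, 1.90 and 1.14 in M0, 3.81, 4.01 and 4.43 in M1 and 0.648, 0.548 and 0.928 in M2. It rose by 1.49 ± 0.18 in M1 (edgeR adjusted p = 7.06e-06) and fell by 1.114 ± 0.25 in M2 (edgeR adjusted p = 0.00204). The latter call was lost, under 2-fold, without M2 library 2 (-0.96) or M0 library 2 (-0.90).

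Adm was the 1 member called higher in both polarized states. It was at 7.99, 11 and 8.84 normalized TPM in M0, at 59.3, 49.4 and 58.8 in M1 and at 27.3, 25.7 and 27.4 in M2. The 3 states did not overlap. Adm rose by 2.62 ± 0.12 on the log2 scale in M1 (edgeR adjusted p = 6.51e-10) and by 1.49 ± 0.11 in M2 (edgeR adjusted p = 3.58e-07). The difference between M1 and M2 was 1.04 ± 0.08 (edgeR adjusted p = 8.41e-09), close to the 2-fold threshold, and was lost under it without M1 library 1 (1.006) or library 3 (0.999). Car9 was at 3.62, 3.31 and 3.85 in M0, at 2.19, 3.999 and 2.197 in M1 and at 2.90, 4.35 and 4.79 in M2, with overlap of all states, and was not called.

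**Figure D4:**
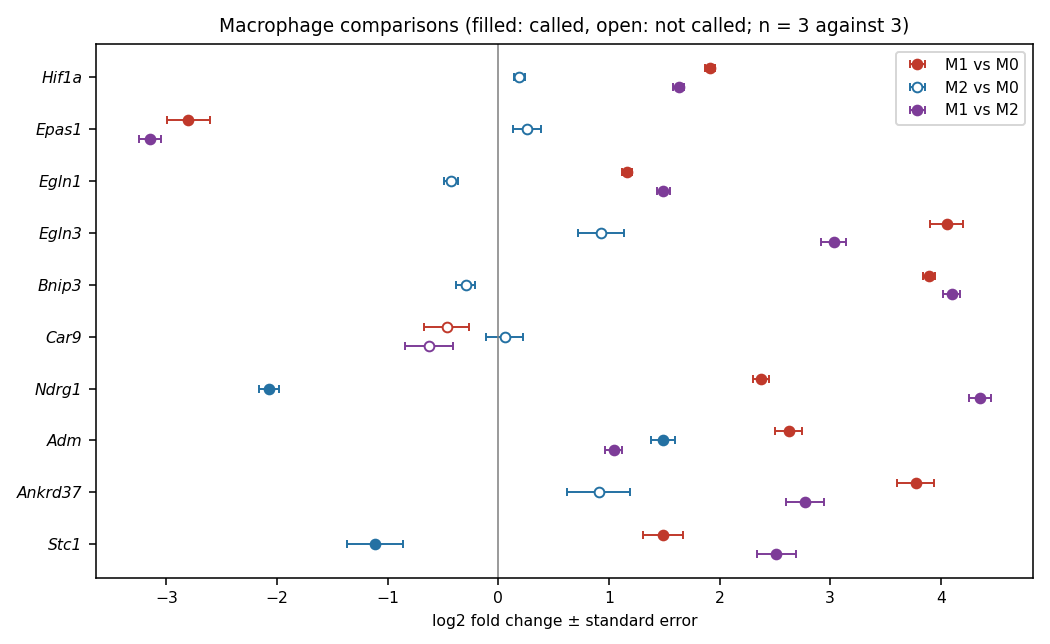
Log2 fold change (points, bars of 1 SE, edgeR) of the 10 members in M1 against M0, M2 against M0 and M1 against M2, with filled points for calls. Egln3, Bnip3 and Ankrd37 have the highest points in M1 against M0 (4.05, 3.90 and 3.77) and Epas1 the lowest (-2.80), while the M2 against M0 points lie between -2.07 and 1.49.

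Of the 13 genes of oxygen sensing and HIF partners in the list made for this report, 12 were tested in the digits and none was called in any of the 16 pairwise digit comparisons. Over all times Egln2, also a prolyl hydroxylase, was called (edgeR adjusted p = 0.0147, beside 7.62% of all genes). In M1 against M0, 5 of 13 rose and none fell (20.1% and 26% of all genes). Vhl, the von Hippel-Lindau protein, was at 34.1 ± 1.2 normalized TPM (SD, n = 3) in M1 and 14.9 ± 0.27 in M0 (log2 fold change 1.201 ± 0.06 SE). Cul2, a scaffold of its ubiquitin ligase, rose by 1.24 ± 0.06. Arnt2 rose from 0.371 to 0.860 and Hif3a from 0.0160 to 0.305, both near the floor of the assay, and Ep300, a coactivator, was the fifth. In M2 against M0 0 of 12 were called, and in M1 against M2 5 of 13 were higher (20.1% of all genes), among them Ep300 (1.27 ± 0.05) and Crebbp (1.076 ± 0.05).

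A list of 35 other HIF targets was higher more often than lower where any were called. In non-regenerative digits 5 of 35 rose at 6 h (3.23% of all genes were higher). At 12 h 10 rose and 1 fell (6.76% and 4.64%), at 24 h 6 rose and 1 fell (5.57% and 5.14%), and at 3 d 3 rose (0.723% of all genes called). The median log2 fold change of the list was 0.29 at 12 h, 0.40 at 24 h and 0.37 at 3 d, beside -0.03, -0.04 and 0.00 for all genes. At 12 h Angptl4, a secreted inhibitor of lipoprotein lipase, rose by 4.02 ± 0.48 on the log2 scale (edgeR adjusted p = 0.00198) and Hmox1, heme oxygenase 1, by 2.59 ± 0.25. Slc16a3, a lactate transporter, was at 1.72 ± 0.62 at 0 h and 27.8 ± 12 at 3 d (4.02 ± 0.40, edgeR adjusted p = 0.00571). Ndufa4l2 (2.33 ± 0.25) and Slc2a1, the glucose transporter GLUT1 (1.36 ± 0.22), rose with it at 3 d, when none of the 10 members was called. Ppp1r3c fell at 24 h by 2.31 ± 0.50.

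In the non-regenerative digits the same list had no call at 3 h, 7 d or 14 d (0%, 0.0537% and 0% of all genes). It had 1 at 21 d (Lox, beside 0.452%). In intermediate digits none of 35 was called at 24 h (0.0152% of all genes). At 14 d 3 rose (Plod2, Lox and Slc16a3, beside 1.68% called) and at 21 d 1 did (Lox, beside 1.39%). Fibroblast sums in intermediate digits were 1535 to 4529 at 0 h, 10250 to 25293 at 14 d and 9686 to 20822 at 21 d. Those of non-regenerative digits were 1612 to 2956 at 0 h and 7581 to 16843 at 21 d. At these times neither group overlapped its 0 h. Over the 9 non-regenerative times Col1a1, Col1a2, Col3a1 and Lum of these markers were called, beside 7.62% of all genes. Pdgfra and Dcn, the other markers, were not, so the sums are no count of fibroblasts. Several genes of the list are also known responses to inflammation, matrix repair or heme. In non-regenerative digits neutrophil sums were above those of 0 h from 6 h to 3 d, as given above. At 21 d they overlapped those of 0 h (3.56 to 27.4). In intermediate digits they were 18.8 to 40.8 at 0 h, 22.0 to 2169 at 14 d and 7.45 to 25.4 at 21 d, with overlap. The part of fibroblast and neutrophil sums in the calls was not tested. In M1 against M0 23 of 34 rose and 2 fell (Tfrc, -3.40, and Cxcr4, -3.41), beside 20.1% and 26% of all genes, with a median of 1.73. Pfkfb3, a regulator of glycolysis, was at 698 ± 23 in M1 and 24.3 ± 1.4 in M0 (4.805 ± 0.07, edgeR adjusted p = 3.85e-14), and Slc16a3 (4.65 ± 0.09), Hmox1 (4.33 ± 0.06) and Ero1l (4.13 ± 0.05) followed. In M2 against M0 9 of 35 rose and 4 fell (11% and 11.3% of all genes), with a median of 0.55, led by Ppp1r3c (4.13 ± 0.33), Edn1 (3.95 ± 0.14) and Bhlhe40 (3.09 ± 0.06). Ppp1r3c was near the floor, at 0.0942 in M0 and 1.78 in M2. In M1 against M2 22 of 35 were higher and 3 lower (20.1% and 27.9%), among the latter Tfrc, the transferrin receptor (11.99 ± 1.6 and 429 ± 47).

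Of 11 receptors and relatives of the members, 1 rose and 1 fell at 24 h in non-regenerative digits, Car2, a cytosolic carbonic anhydrase (278 ± 98 from 55.1 ± 4.5, log2 fold change 2.40 ± 0.27), and Stc2, the relative of Stc1 (2.28 ± 1.4 from 7.20 ± 3.2, -1.60 ± 0.42). At 6 h, 12 h and 3 d none of 9 tested was called. RAMP2 and RAMP3 shape receptors of adrenomedullin together with Calcrl, while RAMP1 with Calcrl makes the receptor of another peptide, CGRP. In M1 against M0 Ramp3 rose from 0.235 ± 0.19 to 15.4 ± 1.0 normalized TPM (5.93 ± 0.29) while Ramp1 fell from 8.32 ± 0.59 to 0.162 ± 0.20 (-5.90 ± 0.33). Ramp2 fell from 1.81 ± 1.3 to 0.0892 ± 0.082, near the floor. In all, 6 of these 11 rose and 3 fell in M1 against M0 (20.1% and 26% of all genes), 4 rose and 1 fell in M2 against M0 (11% and 11.3%), and 5 were higher and 4 lower in M1 against M2 (20.1% and 27.9%).

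Across the 29 non-regenerative digits, the levels of the members went together only in part, given here as Spearman's rho with no test, since the digits share times, libraries of unequal depth and a changing mixture of cells. Over the 45 pairs of members the median rho was 0.15. It was 0.72 for Egln1 with Egln3, 0.57 for Egln3 with Bnip3, 0.54 for Egln1 with Bnip3 and 0.51 for Egln1 with Ankrd37. The lowest was -0.41, for Hif1a with Egln1. Of all genes tested over time, those most like a member over the 29 digits were Ndufa4l2 for Egln1 (0.87), E2f4 for Ndrg1 (0.86), Gsta4 for Hif1a (0.83), Hivep3 for Car9 (0.82), Qsox1 for Egln3 (0.81), Serpini1 for Epas1 (0.81), Ets2 for Adm (0.80, with Il6 at 0.79), Zmiz1 for Bnip3 (0.79), Fgf2 for Stc1 (0.79) and Mblac1 for Ankrd37 (0.69). Ndufa4l2, itself on the list of other targets, was also among the nearest 3 of Egln3 (0.78).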

How the data were processed

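RNA of wound-bed tissue and of bone marrow-derived macrophages was made into poly(A) libraries (LM-Seq). The authors aligned reads to mm10 (GRCm38) with Bowtie and Ensembl genes and quantified them with RSEM 1.2.3. They deposited expected counts, and normalized TPM (a signal scaled by median-by-ratio within each table). Levels here are the deposited normalized TPM, with digits and macrophages scaled separately and not compared.

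Groups came from the sample titles. Deposited expected counts were rounded and tested for 2 groups at a time with edgeR 4.0.16 in R 4.3.3 (filterByExpr, TMM, quasi-likelihood F test). The study's own tool, EBSeq, was not used here; its thresholds, an adjusted p under 0.05 and over 2-fold of mean normalized count + 1, were kept. Tests over all times and of the time by group term used the same tool at an adjusted p under 0.05. Alternatives were DESeq2 1.42.0, other size factors, no low-count filter, joint fits, the date period, a replicate block and leaving out each library. Scripts were tested on simulated data. Promoter letters and summaries were computed with Python 3.11.15 (pandas 2.3.3). All 55 replicate pairs differed by more than sampling noise (chi-square per degree of freedom 3.05 to 411).

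The members and the gene lists were chosen with earlier results of these data known. Named list genes were up to 4 called genes per list and comparison with the largest fold change, and the 3 genes nearest to each member by Spearman's rho. List genes named beyond that rule were named after their values were seen. 1 gene that the rule would name is not reported here.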

Additional observations from a re-analysis of the deposited data

Results flagged for a closer look

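Among the 5 non-regenerative digits at 7 d, a single digit stood apart from the others for 2 of the 10 members, a different digit for each. Hif1a was highest in digit 2, at 228 normalized TPM, with a gap to the next digit of 0.810 of the group's range, against a critical value of 0.71 at 5 digits (Dixon's test). Car9 was highest in digit 1, at 6.85, with a gap of 0.826 of the range, and 3 of the other digits were listed at 0. Chance gives such a gap in about 1 of 20 groups, and 10 groups were tested. Digit 2 is the library that also held the lowest Bnip3, Ndrg1, Epas1 and Egln1 levels of all digits. It had the fewest genes with counts above 0 (10096).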

How the results depend on the processing

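For members called in any fit of a comparison, no fold change changed sign between the reported fit and the other fits listed here. The other members were not checked for this. Some ratios within date periods did change sign, as given in the report. Counts are of genes called and, where they moved, of members. Times without another group named are non-regenerative digits against 0 h, and "INT" marks intermediate digits against their 0 h. As reported, genes called were 0 at 3 h, 638 at 6 h, 1491 at 12 h, 1437 at 24 h, 96 at 3 d, 7 at 7 d, 0 at 14 d, 62 at 21 d and 358 for 3 d against 24 h. They were 2, 224 and 186 at INT 24 h, 14 d and 21 d, 0, 0, 0 and 89 between groups at 0 h, 24 h, 14 d and 21 d, 1100 over all times and 0 for the time by group term.

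DESeq2 called 196 genes at 3 h, 1113 at 6 h, 450 at 3 d, 161 at 7 d, 354 at 14 d, 252 at 21 d, 748 for 3 d against 24 h, 350, 507 and 413 at INT 24 h, 14 d and 21 d, 17, 155 and 204 between groups at 0 h, 24 h and 21 d, 4406 over all times and 3 for the time by group term. It called 2 members at 3 h (Ndrg1 and Adm), 3 at 6 h (Egln3 added), 3 at 3 d (Egln3, Bnip3 and Adm), 2 for 3 d against 24 h (Egln3 and Stc1) and 5 over all times (Epas1, Egln1, Egln3, Ndrg1 and Adm). DESeq2's size factors in edgeR gave 2354 genes and 2 members (Egln3 and Adm) over all times. With no low-count filter 16 genes were called at 3 h, 175 at 3 d with 1 member (Egln3), 4 at 14 d, and 70 and 291 at INT 24 h and 21 d, and in M1 against M2 8 members, with Adm lost at 2-fold.

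All digits in 1 fit gave 1, 116, 421, 331, 35, 163, 731 and 33 genes from 3 h to 21 d, 17 for 3 d against 24 h, 20, 56 and 25 for INT, and 1 and 0 between groups at 24 h and 21 d, with 0 members at 6 h, 1 at 12 h (Epas1) and 0 at 24 h. With the date period added it gave 2, 118, 310, 334, 39, 173 and 839 genes from 3 h to 14 d, 23 for 3 d against 24 h, 24, 65 and 25 for INT, 1 and 0 between groups, and 0 members at 6, 12 and 24 h. These fits share 1 spread that holds the 2 digits apart. Without those 2, chosen after seeing the data, 1 fit of 39 digits gave 145 genes at 3 h, 277 at 7 d, 264 at 14 d, 101, 129 and 57 for INT, and 16 and 1 between groups at 24 h and 21 d, with 1 member at 6 h (Ndrg1) and 1 at 7 d (Egln3, log2 2.08). With the date period that fit gave 98 genes at 3 h, 323 at 7 d, 329 at 14 d, 105 at 21 d, 170 and 61 at INT 24 h and 21 d, and 17 and 1 between groups, with 1 member at 6 h (Ndrg1), 1 at 12 h (Epas1), and 1 at 3 d and at 7 d (Egln3, log2 2.04 and 2.13). Over all times, 3003 genes and 7 members were called without the 2 digits, and 0 members with the date period.

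Leaving out 1 library gave 0 to 84 genes at 3 h, 108 to 605 at 6 h, 804 to 1895 at 12 h, 817 to 1707 at 24 h, 43 to 203 at 3 d, 0 to 78 at 7 d, 0 to 271 at 14 d, 4 to 77 at 21 d and 0 to 683 for 3 d against 24 h. It gave 1 to 37, 23 to 393 and 45 to 280 for INT, 0 to 2, 0 to 653, 0 to 0 and 0 to 119 between groups, and 802 to 2073 over all times. Members ranged from 0 to 2 at 6 h, 1 to 3 at 12 h, 0 to 3 at 24 h, 0 to 2 at 3 d, 0 to 1 between groups at 24 h, 0 to 5 over all times, 9 to 9 in M1 against M0, 2 to 4 in M2 against M0 and 8 to 9 in M1 against M2. A lone library was assumed to vary like the rest.

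The macrophage replicate numbers did not pair the libraries. Correlations of deviations were -0.112 to 0.122 for the same number and -0.117 to 0.135 for other numbers. The replicate block called 9, 3 and 9 members and 5957, 2892 and 6208 genes, and changed no member call. Digit numbers name digits only. Low counts limit Car9 and Ankrd37 in digits, and 3 digits a group limit all digit tests.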
